A study of Homo sapiens with 100 samples.

Results

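IRF4 (ENSG00000137265) is 1 of the 78894 gene identifiers in the deposited count table, found there by its gene symbol, which 1 entry carried. Earlier results of these data were known when IRF4 was chosen. Its level was followed in 100 libraries of TMD8. This established human line derives from a lymphoma of large B cells, of the subtype named for activated B cells. All clones were single-cell clones of that line: 5 wild-type clones and 6 clones edited to A428D in their own copy of BTK, called A428D here. The sample titles attach A428D to SF3B1 and the other texts attach it to BTK, and counts from transcript 3' ends cannot check either. Each clone was exposed for 24 h to DMSO (the solvent control), zelebrudomide, bexobrutideg, pomalidomide, venetoclax, or venetoclax with 1 of the other 3 compounds, which gave 88 libraries in 16 groups. Another 12 libraries came from the 11 clones and the parental line, all left untreated. The labels spell the degraders Zelbrudomide and Bexobrutidig, and doses are not given in the sources used here.

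IRF4 encodes interferon regulatory factor 4, a transcription factor of lymphocytes. In lymphomas of the activated B cell type, signals from the B cell receptor and from Toll-like receptors run through BTK and MYD88 to NF-κB, which is known to activate IRF4, and IRF4 then binds DNA with PU.1 or SPIB at ETS and IRF composite sites or with BATF and JUN proteins at AP-1 and IRF composite sites. Zelebrudomide and bexobrutideg are BTK degraders that recruit the cereblon ligase, and zelebrudomide also directs cereblon to the transcription factors IKZF1 and IKZF3. Pomalidomide binds cereblon and leads to loss of IKZF1 and IKZF3 but not of BTK. Venetoclax blocks BCL2, a protein that keeps lymphoma cells alive. Loss of IKZF1 and IKZF3 is known to lower IRF4 in plasma cell tumours.

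The gene lies on chromosome 6 at 391739 to 411447 of GRCh38, on the plus strand, per GENCODE release 29, which lists 5 transcripts. The coding transcript IRF4-201 has 9 exons and spans the whole gene. No annotated gene overlaps it. The nearest protein-coding neighbours are DUSP22 (291630 to 351355, plus strand) and EXOC2 (485133 to 693111, minus strand), so no overlapping or antisense gene is listed there that could share its reads. The deposited IRF4 value was nevertheless not whole in 14 of the 100 libraries, and with what such reads were shared was not tested.

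The 250 bases before the IRF4 start site in RefSeq (GRCh38.p14, chr6:391502-391751, plus strand) are shown as the sequence beside the annotated start of the coding transcript. Counts from transcript 3' ends do not show which start was used, and 1 of the 5 GENCODE transcripts, IRF4-203, starts further in, at 393279. Capitals mark each GGGCGG on either strand, read as CCGCCC on the plus strand, and TATAAA on either strand.
IRF4: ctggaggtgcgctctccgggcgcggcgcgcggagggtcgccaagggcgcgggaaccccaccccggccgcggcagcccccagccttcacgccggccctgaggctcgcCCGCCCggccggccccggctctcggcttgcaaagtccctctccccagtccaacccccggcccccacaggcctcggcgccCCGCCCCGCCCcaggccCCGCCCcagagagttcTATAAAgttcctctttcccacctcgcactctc
This window is 76% G or C and holds GGGCGG 4 times, each on the minus strand, and TATAAA once, 32 bases before the start. Of 27305 windows of the same length in that table, 42.3% hold GGGCGG and 11.1% hold TATAAA on either strand. The kappaB consensus was found 0 times in the IRF4 window, as were GAAA, any 2 bases and GAAA again, a repeat bound by IRF proteins, and GGAA, any 2 bases and GAAA, the ETS and IRF composite (both strands searched). Those motifs were present in 9.57%, 3.07% and 2.44% of all windows. A match is only a run of letters, and the absence of one says nothing about binding here or elsewhere. The last 13 bases of the window lie inside the GENCODE transcript IRF4-201, whose start is upstream of the RefSeq start.

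In units of 1000000, a library of the 24 h set held 1.48 to 9.39 counted reads (median 6.98) and an untreated one 10.4 to 12.5 (median 11.4). IRF4 held 749 to 8274 counts per library, so that 95% counting error alone was between 2.15% and 7.17% of a value. All 7 B cell markers were present, with a summed level of 1780 to 3466 CPM (counts per 1000000 counted reads), and 0 of 4 T cell markers and 0 of 4 monocyte markers reached a median of 1 CPM. The transcripts for 3 further markers did: COL1A1 at a median of 7.62, CDH1 at 15.5 and KRT8 at 1.97 CPM. One library stood apart: wild-type clone 3 under bexobrutideg plus venetoclax had 1.48 of these units, was the only library under 3, and gave the highest IRF4 level of its group, 551.6 CPM against 238 to 274 in the other 4. Other genes stood apart in it too: LYN was at 540.1 CPM against 319.5 to 364.2, BTK at 39.1 against 81.3 to 83.5 and POLD4 at 14.03 against 44.4 to 52.3. IKZF1, IKZF3 and CRBN in that library lay within the range of the other 4. Whether it matches its label, and the part of its depth, were not tested. Comparisons of IRF4 that use the group are given with and without it. In such bulk cultures, fewer cells with IRF4 and less IRF4 RNA per cell cannot be told apart.

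Levels of IRF4 are in CPM after trimmed-mean (TMM) scaling on 1 scale for all 100 libraries. In wild-type clones 1 to 5 under DMSO, IRF4 stood at 441, 482, 483, 443 and 413 CPM, a mean of 452.3 ± 30.02 (SD, n = 5). The 6 A428D clones under DMSO ran from 305 to 492.9 CPM with a median of 365.0 and a mean of 378.7 ± 70.1 (SD, n = 6). The ranges of the genotypes overlapped. The difference, A428D against wild-type, was -0.27 ± 0.10 (SE) on the log2 scale and did not pass the test (adjusted p = 0.119, edgeR quasi-likelihood test with Benjamini-Hochberg adjustment over all genes, the test behind every adjusted p here unless another is named). In that comparison 7.13% of all genes tested passed an adjusted p of 0.05. Without A428D clone 5, the highest of its group, the difference was -0.35 with an adjusted p of 0.0342.

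Among its changes from DMSO, the largest falls of IRF4 were in wild-type clones given a BTK degrader. Under zelebrudomide clones 1 to 5 stood at 189, 190, 218, 199 and 194 CPM (mean 198.1 ± 11.6, SD, n = 5). Under bexobrutideg they stood at 209, 229, 235, 220 and 222 CPM (mean 223.3 ± 9.82, SD, n = 5). Every one of these 10 libraries was below every wild-type DMSO library, the closest being 235 against 413 CPM. IRF4 fell by 1.19 ± 0.15 (log2, SE) under zelebrudomide, to 0.438 of the DMSO level (95% interval 0.355 to 0.539, adjusted p = 1.11e-08), in a comparison where 6.57% of genes passed. Under bexobrutideg it fell by 1.02 ± 0.15, to 0.494 of the DMSO level (0.402 to 0.608, adjusted p = 2.45e-06), where 2.45% of genes passed. By p-value IRF4 ranked number 17 of 14962 genes under zelebrudomide and number 12 under bexobrutideg.

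The A428D clones given the same degraders stayed near their DMSO levels. Under zelebrudomide the lowest, median and highest were 281, 392 and 562 CPM, and under bexobrutideg 329, 385 and 524 CPM (means 399.5 ± 97.4 and 398.7 ± 75.6, SD, n = 6). Both ranges overlapped that under DMSO. The change was 0.07 ± 0.14 under zelebrudomide (95% interval -0.20 to 0.34, adjusted p = 0.974; 2.06% of genes passed). It was 0.08 ± 0.14 under bexobrutideg (95% interval -0.19 to 0.35, adjusted p = 1.00), where 0% of genes passed. These intervals leave out a fall of the size measured in wild-type clones.

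**Figure D1:**
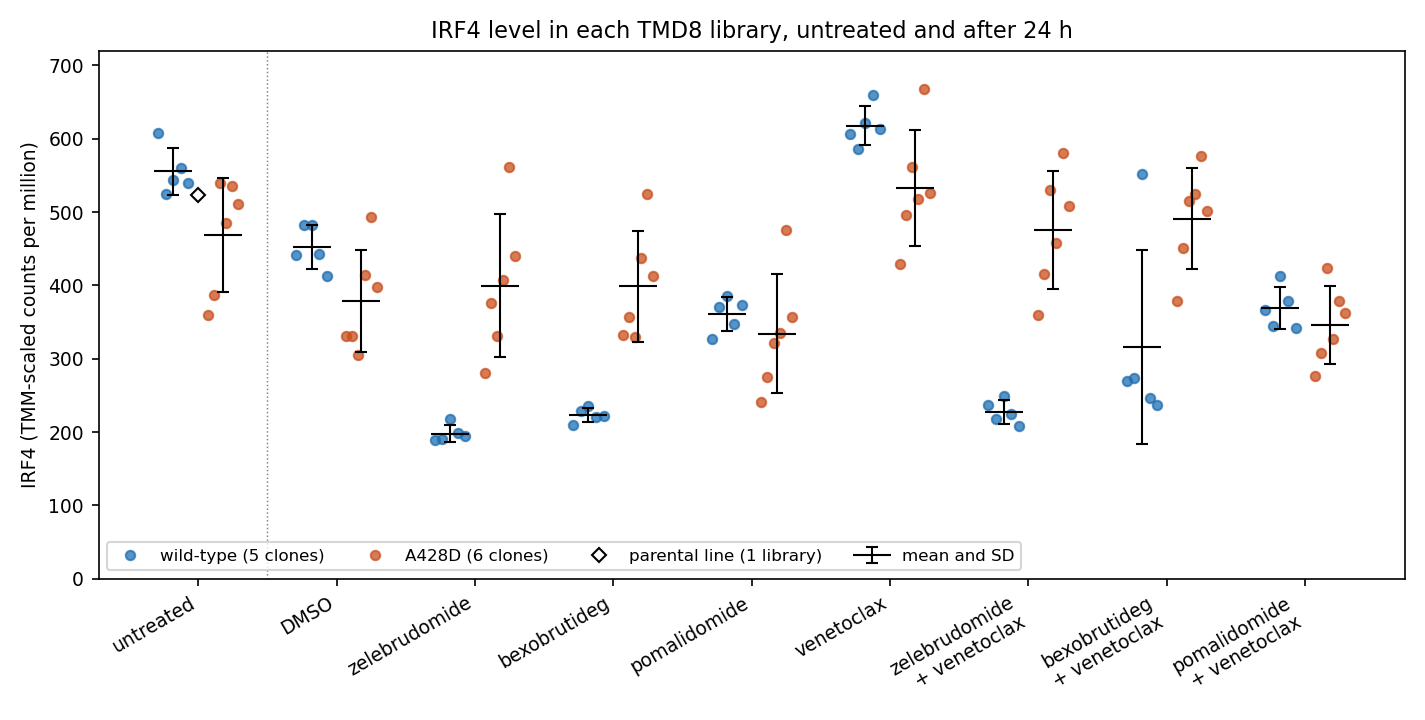
IRF4 in TMM-scaled CPM (vertical axis) in each library, by condition (horizontal axis) and genotype, with the mean and SD of each group; the dotted line separates the untreated set, which holds the parental library. Wild-type libraries under either BTK degrader lie between 189 and 235 CPM, below all DMSO libraries, while A428D libraries under the same compounds overlap their own DMSO range; the lone high wild-type point under bexobrutideg plus venetoclax is clone 3, at 552 CPM.

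The genotypes differed in the response itself. The change from DMSO in A428D minus that in wild-type clones was 1.26 ± 0.20 on the log2 scale for zelebrudomide (adjusted p = 4.18e-05; 1.04% of genes passed). For bexobrutideg it was 1.09 ± 0.20 (adjusted p = 0.000681; 0.615% passed). Within clones, each compared with its own DMSO library, the wild-type change ran from -1.34 to -1.09 under zelebrudomide and from -1.07 to -0.89 under bexobrutideg, a fall in 5 of 5 clones each time. In A428D clones it ran from -0.24 to 0.19 under zelebrudomide, higher in 4 of 6, and from 0.00 to 0.11 under bexobrutideg, higher in 6 of 6. An exact two-sided permutation test of these paired changes gave p = 0.00216 for each compound, the smallest that 5 against 6 clones allow, and 0.00379 after adjustment over the 7 treatments.

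Measured within a condition, A428D clones held more IRF4 than wild-type clones under both degraders. The difference was 0.98 ± 0.13 under zelebrudomide (adjusted p = 0.000591; 13% of genes passed) and 0.82 ± 0.11 under bexobrutideg (adjusted p = 0.000449; 12.3% passed), and in neither did the ranges overlap. The lowest A428D library under zelebrudomide, at 281 CPM, was above the highest wild-type one, at 218 CPM.

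Pomalidomide, which acts on IKZF1 and IKZF3 and not on BTK, went with a smaller decrease. Wild-type clones 1 to 5 stood at 328, 371, 385, 348 and 374 CPM (mean 361.2 ± 23.2, SD, n = 5), all below the lowest wild-type DMSO library at 413. The A428D clones ran from 241 to 476 CPM with a median of 328 (mean 334.3 ± 81.2, SD, n = 6), overlapping their DMSO range. The wild-type difference of -0.34 ± 0.15 did not pass (adjusted p = 0.1497; 9.99% of genes passed), but with clone as a replicate block it was -0.34 ± 0.09 and passed (adjusted p = 0.00346). In A428D clones the difference was -0.20 ± 0.14 (adjusted p = 0.505; 8.68% passed). All 5 wild-type clones and 5 of 6 A428D clones were below their own DMSO library, and A428D clone 3 was 0.08 above it. The genotype difference in the change was 0.15 ± 0.20 (95% interval -0.25 to 0.55, adjusted p = 1.00), where 0% of genes passed, and the exact permutation p of the paired changes was 0.212 (0.297 adjusted over the 7 treatments).

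Venetoclax raised IRF4 in both genotypes. Wild-type clones 1 to 5 stood at 607, 586, 622, 659 and 614 CPM (mean 617.6 ± 26.7, SD, n = 5), all above every wild-type DMSO library. The A428D clones ran from 429 to 667 CPM with a median of 522 (mean 532.8 ± 79.3, SD, n = 6), and this range overlapped their DMSO range of 305 to 492.9. IRF4 rose by 0.43 ± 0.15 in wild-type clones (1.35-fold, 95% interval 1.10 to 1.65, adjusted p = 0.0190; 32.8% of genes passed). It rose by 0.48 ± 0.14 in A428D clones (1.39-fold, 1.15 to 1.68, adjusted p = 0.00878; 16.8% passed). Each of the 11 clones was above its own DMSO library, by 0.28 to 0.57 in wild-type and by 0.32 to 0.88 in A428D clones. The genotype difference in the change was 0.05 ± 0.20 (95% interval -0.35 to 0.45, adjusted p = 1.00), with 0% of genes passing. Without wild-type clone 5 the adjusted p in wild-type clones was 0.0524.

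**Figure D2:**
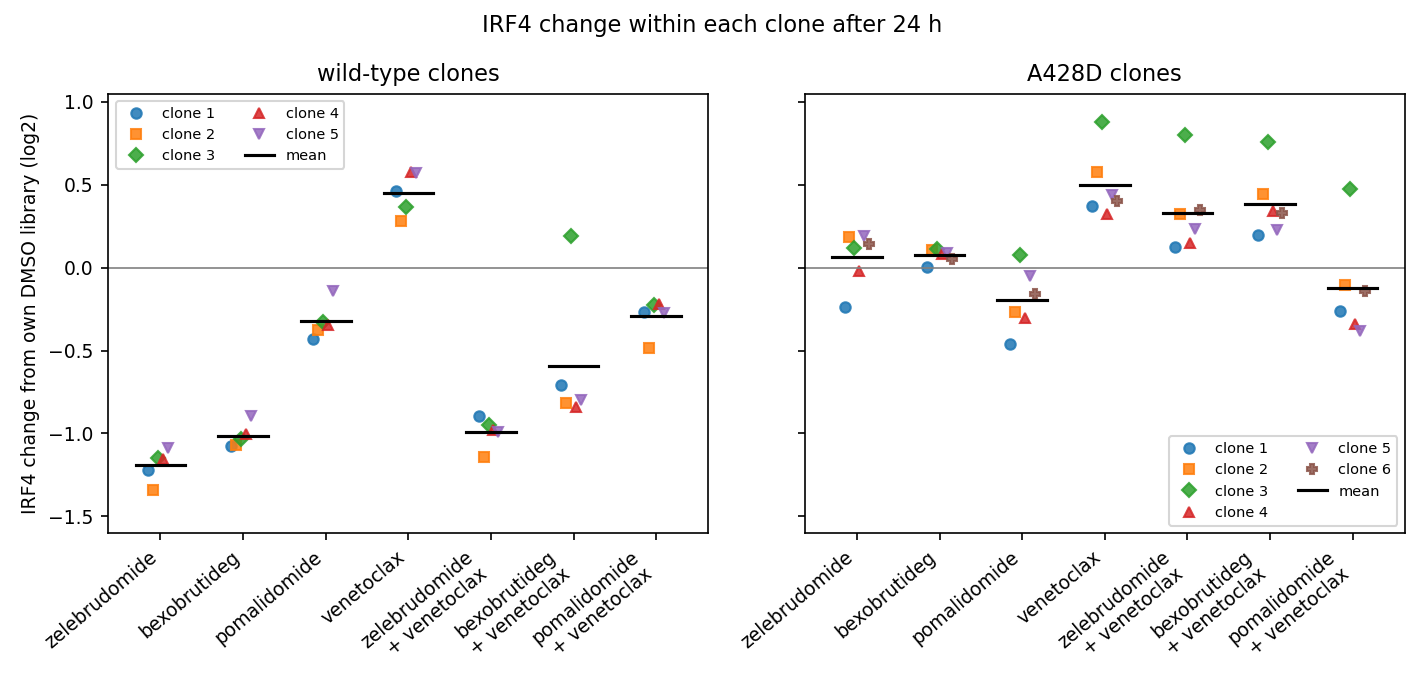
Change of IRF4 from the DMSO library of the same clone (log2 of TMM-scaled CPM, vertical axis) for the 7 treatments (horizontal axis), with 1 symbol per clone and a bar at the group mean; wild-type clones at the left, A428D clones at the right. All 5 wild-type clones lie near -1 under either degrader alone, the A428D clones lie near 0, and all 11 clones lie above 0 under venetoclax.

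In the combinations with a BTK degrader the genotypes parted again. Wild-type clones 1 to 5 under zelebrudomide plus venetoclax stood at 237, 218, 250, 224 and 208 CPM (mean 227.3 ± 16.3, SD, n = 5). Under bexobrutideg plus venetoclax they stood at 270, 274, 552, 247 and 238 CPM, a mean of 315.9 ± 132.7 (SD, n = 5), or 256.9 ± 17.4 (SD, n = 4) without clone 3. Apart from that library, none of these reached the lowest wild-type DMSO level. IRF4 fell by 1.00 ± 0.15 under zelebrudomide plus venetoclax (adjusted p = 4.22e-07; 23.4% of genes passed) and by 0.53 ± 0.15 under bexobrutideg plus venetoclax (adjusted p = 0.00615; 21.3% passed). Without the shallow library the latter was a fall of 0.84 ± 0.14 (adjusted p = 3.96e-06). In a fit of only those 2 groups, clone 3 included, it was -0.48 with an adjusted p of 0.228, and leaving out wild-type clone 2, 4 or 5 also ended the call (adjusted p up to 0.0817).

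The A428D clones under zelebrudomide plus venetoclax ran from 360 to 580 CPM with a median of 483, and under bexobrutideg plus venetoclax from 379 to 576 CPM with a median of 508 (means 475.6 ± 80.3 and 491.2 ± 68.3, SD, n = 6). Both ranges overlapped that under DMSO, and each of the 6 clones was above its own DMSO library in both. The differences of 0.32 ± 0.14 (adjusted p = 0.0714; 26.2% of genes passed) and 0.36 ± 0.14 (adjusted p = 0.0591; 15.7% passed) did not pass. With clone as a replicate block they were 0.32 ± 0.08 and 0.36 ± 0.08 and passed (adjusted p = 0.00158 and 0.000532). Without the shallow library, which enters their fit through the shared spread, they were 0.34 ± 0.12 and 0.37 ± 0.12 and passed too (adjusted p = 0.0194 and 0.0167). The genotype difference in the change was 1.32 ± 0.20 for zelebrudomide plus venetoclax (adjusted p = 9.94e-06; 3.32% of genes passed). For bexobrutideg plus venetoclax it was 0.89 ± 0.20 (adjusted p = 0.00626; 1.94% passed) and, without the shallow library, 1.21 ± 0.18 (adjusted p = 7.14e-06). A fit of only those 4 groups, clone 3 included, gave 0.89 with an adjusted p of 0.171. The exact permutation p of the paired changes was 0.00216 for both (0.00379 adjusted over the 7 treatments), again the smallest possible, with clone 3 the only wild-type clone above its own DMSO library, by 0.19. Without wild-type clone 3 the exact permutation p for bexobrutideg plus venetoclax was 0.00476, the smallest that 4 against 6 clones allow (0.00833 adjusted over the 7 treatments).

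Within these combinations A428D clones were higher than wild-type clones by 1.04 ± 0.11 with zelebrudomide (adjusted p = 2.63e-05; 22.9% of genes passed). With bexobrutideg the difference was 0.60 ± 0.22 and did not pass (adjusted p = 0.206; 1.93% passed). Without the shallow library it was 0.92 ± 0.10 (adjusted p = 0.000105). The range of the A428D group, from 379 CPM, lay above the 4 other wild-type libraries, which ended at 274 CPM.

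Pomalidomide plus venetoclax left mean IRF4 near or below DMSO in both genotypes. Wild-type clones 1 to 5 stood at 367, 345, 413, 379 and 342 CPM (mean 369.1 ± 28.8, SD, n = 5), with clone 3 just under the lowest wild-type DMSO library. The A428D clones ran from 276 to 423 CPM with a median of 344 (mean 345.8 ± 52.9, SD, n = 6), inside or just below their DMSO range. The wild-type difference from DMSO was -0.31 ± 0.15 (adjusted p = 0.0966; 36.8% of genes passed) and -0.31 ± 0.09 with clone as a replicate block (adjusted p = 0.00371). In A428D clones it was -0.14 ± 0.14 (adjusted p = 0.457; 30.4% passed). Compared with its own DMSO library, IRF4 was lower in all 5 wild-type clones and in 5 of 6 A428D clones. A428D clone 3 was 0.47 above its own. The genotype difference in the change was 0.16 ± 0.20 (95% interval -0.24 to 0.56, adjusted p = 1.00), where 0.00668% of genes passed, and the exact permutation p was 0.325 (0.379 adjusted over the 7 treatments).

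Set against venetoclax alone, each partner lowered IRF4 in wild-type clones, and pomalidomide did so in A428D clones too. In wild-type clones the addition of zelebrudomide lowered it by 1.43 ± 0.15 (adjusted p = 1.53e-11; 21.2% of genes passed), bexobrutideg by 0.96 ± 0.15 (adjusted p = 1.75e-06; 15.5% passed) and pomalidomide by 0.74 ± 0.15 (adjusted p = 0.000208; 8.41% passed). Without the shallow library the fall on adding bexobrutideg was 1.28 ± 0.14 (adjusted p = 5.66e-11). Every wild-type clone was lower in the combination than under venetoclax. In A428D clones pomalidomide lowered it by 0.62 ± 0.14 (adjusted p = 0.000647; 7.91% passed), in 6 of 6 clones. The A428D difference was -0.16 ± 0.14 with zelebrudomide (95% interval -0.43 to 0.11, with 1.07% of genes passing), lower in 6 of 6 clones. With bexobrutideg it was -0.12 ± 0.14 (-0.39 to 0.15, with 0% passing), lower in 5 of 6. Neither difference passed, with or without clone as a replicate block.

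Venetoclax added to a partner gave differences that passed in 1 of 6 cases, against both cases for venetoclax given alone, and the kinds of difference were not tested against each other. In wild-type clones the difference was 0.19 ± 0.15 on zelebrudomide (adjusted p = 0.446; 12.5% of genes passed) and 0.04 ± 0.15 on pomalidomide (adjusted p = 0.899; 20.1% passed). On bexobrutideg it was 0.49 ± 0.15 (adjusted p = 0.0147; 18.8% passed), which rested on the shallow library: without it the value was 0.17 ± 0.14 (adjusted p = 0.453). In A428D clones it was 0.25 ± 0.14 on zelebrudomide (adjusted p = 0.189; 20.7% passed), 0.28 ± 0.14 on bexobrutideg (adjusted p = 0.141; 19.7% passed) and 0.05 ± 0.14 on pomalidomide (adjusted p = 0.841; 17.1% passed). With clone as a replicate block the A428D differences on zelebrudomide and bexobrutideg passed, at 0.26 ± 0.08 (adjusted p = 0.0104) and 0.28 ± 0.08 (adjusted p = 0.00557).

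**Figure D3:**
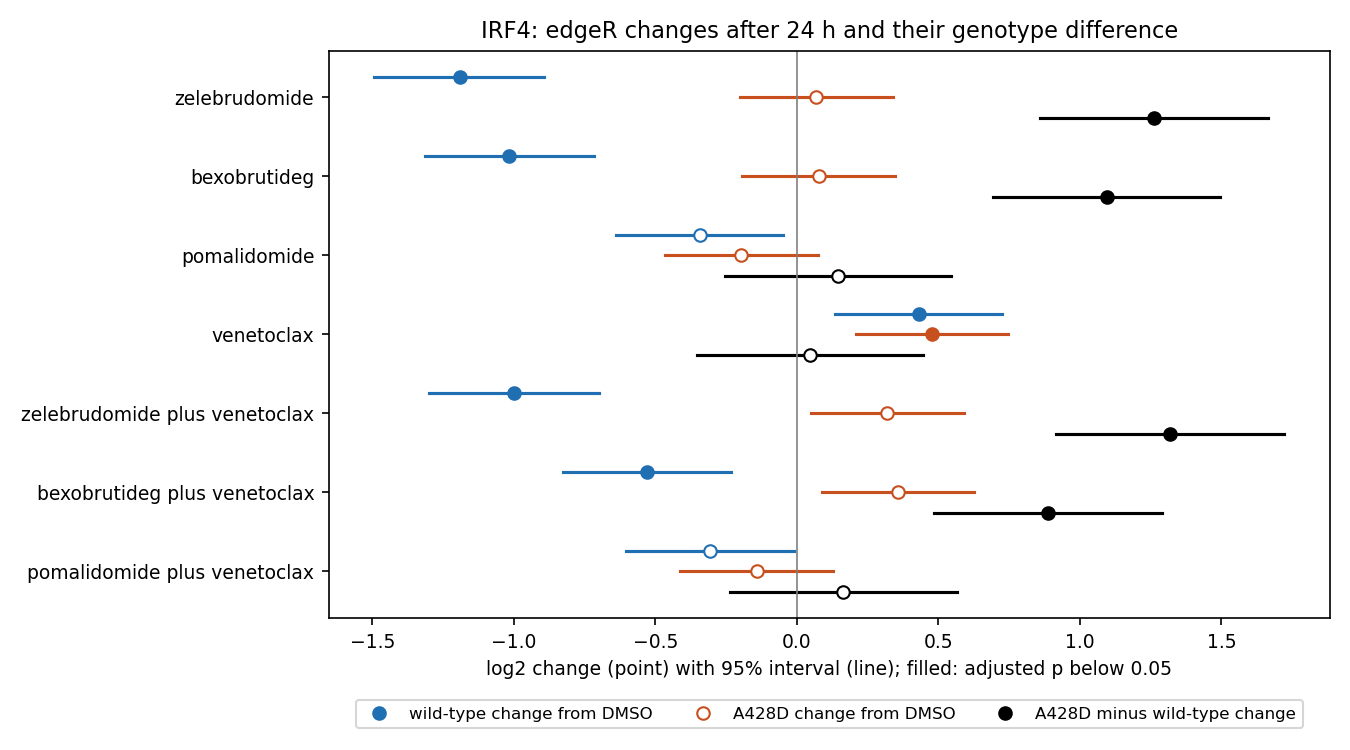
IRF4 log2 change from DMSO with its 95% interval (horizontal axis) in wild-type and A428D clones and the A428D minus wild-type change, for each of the 7 treatments (vertical axis); filled points passed an adjusted p of 0.05. The genotype difference passed for both BTK degraders, alone (1.26 and 1.09) and with venetoclax (1.32 and 0.89), and not for pomalidomide, venetoclax or their combination.

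Among the compounds given alone for 24 h, zelebrudomide and bexobrutideg were compared directly because both degrade BTK and zelebrudomide alone of them also acts on IKZF1 and IKZF3. Doses are unknown, so the compounds cannot be matched on dose. In wild-type clones zelebrudomide was lower than bexobrutideg in 5 of 5 clones, and the difference of -0.18 ± 0.15 (95% interval -0.47 to 0.12, adjusted p = 0.903) did not pass, where 1.23% of genes passed. In A428D clones the difference was -0.01 ± 0.14 (95% interval -0.28 to 0.26; 1.24% passed). IRF4 was lower under zelebrudomide than under pomalidomide in wild-type clones, by -0.85 ± 0.15 (adjusted p = 2.35e-05; 7.43% passed), and lower under bexobrutideg than under pomalidomide, by -0.67 ± 0.15 (adjusted p = 0.000447; 16.1% passed). In A428D clones the order of the values was the opposite. Zelebrudomide against pomalidomide gave 0.27 ± 0.14 (adjusted p = 0.786; 0.842% passed). Bexobrutideg against pomalidomide gave 0.27 ± 0.14 (adjusted p = 0.272; 7.85% passed) and 0.29 ± 0.08 with clone as a replicate block (adjusted p = 0.00933). All 6 A428D clones were lower under pomalidomide than under either degrader.

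Where the genotypes were compared within the remaining conditions, no difference in IRF4 passed. It was -0.12 ± 0.13 under pomalidomide (3.46% of genes passed), -0.22 ± 0.09 under venetoclax (adjusted p = 0.157; 5.37% passed), -0.10 ± 0.10 under pomalidomide plus venetoclax (2.52% passed) and -0.24 ± 0.11 in untreated cultures (adjusted p = 0.237; 5.9% passed). Without A428D clone 5 the value under venetoclax was -0.29 with an adjusted p of 0.0307.

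In the 4 comparisons given above with 0% of genes passing, edgeR found 0 of 14962 genes at the adjusted threshold. At an unadjusted p under 0.05 the count was 288 for bexobrutideg against DMSO in A428D clones, 253 and 709 for the genotype difference in the change under pomalidomide and venetoclax, and 232 for bexobrutideg added to venetoclax in A428D clones. DESeq2 called 0 genes in each of the 4, and edgeR with clone as a replicate block called 2, 7, 26 and 0.

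The untreated cultures held more IRF4 than the DMSO cultures. Untreated wild-type clones 1 to 5 stood at 608, 525, 544, 560 and 539 CPM (mean 555.4 ± 32.0, SD, n = 5), all above their DMSO range. Untreated A428D clones ran from 359 to 540 CPM with a median of 498 (mean 469.4 ± 77.8, SD, n = 6), overlapping their DMSO range, and the single parental library stood at 523 CPM. IRF4 was higher than under DMSO by 0.31 ± 0.11 in wild-type clones (adjusted p = 0.0154) and by 0.33 ± 0.10 in A428D clones (adjusted p = 0.00655), where 72% and 71% of all genes passed, so that a call there singles out no gene. All 11 clones moved this way. The adjusted p was 0.0678 without wild-type clone 1 and 0.0542 without A428D clone 3. The untreated libraries were a separate, deeper set, and mitochondrial protein transcripts took 6.14% to 7.51% of their reads against 3.75% to 6.06% in the 24 h set. Set and exposure cannot be told apart.

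Ordered by mean level, the 19 groups ran from wild-type venetoclax at 617.6 CPM down to wild-type zelebrudomide at 198.1 CPM. After wild-type venetoclax came wild-type untreated, A428D venetoclax, the parental library, A428D with bexobrutideg plus venetoclax, A428D with zelebrudomide plus venetoclax, A428D untreated and wild-type DMSO. Then came A428D zelebrudomide, bexobrutideg and DMSO, wild-type pomalidomide plus venetoclax, wild-type pomalidomide, A428D pomalidomide plus venetoclax and A428D pomalidomide. The last 4 were all wild-type groups given a BTK degrader: bexobrutideg plus venetoclax, zelebrudomide plus venetoclax, bexobrutideg and zelebrudomide. All 18 pairs of neighbours in this order overlapped in range. Only 2 of those 18 gaps exceeded the larger SD of the pair, between wild-type venetoclax and wild-type untreated, and between wild-type bexobrutideg and wild-type zelebrudomide. Without the shallow library the order and the overlaps were the same, and the gap between wild-type bexobrutideg plus venetoclax and wild-type zelebrudomide plus venetoclax exceeded the larger SD as well. The places of the untreated groups rest on the scaling. TMM factors were 1.14 to 1.21 in untreated and 1.02 to 1.06 in wild-type venetoclax libraries. As CPM of library totals, wild-type untreated libraries ran from 622 to 728 and wild-type venetoclax ones from 606 to 679, so the gap between these groups is not shown there.

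The spread between clones was wider in the A428D group. Its coefficients of variation ran from 13.9% to 24.4% over the 8 conditions and the untreated group, against 4.33% to 7.80% in wild-type groups other than bexobrutideg plus venetoclax, where it was 42% with the shallow library and 6.79% without it. A428D clone 5 was the highest A428D library in 7 of 8 conditions and clone 1 the lowest in 6 of 8. On the log2 scale clone averages had an SD of 0.24 in A428D clones, above the residual SD of 0.13, and of 0.11 in wild-type clones, below the residual SD of 0.17. Over the 7 conditions other than bexobrutideg plus venetoclax the wild-type values were 0.06 and 0.07. Wild-type clone 3 was the highest wild-type library in 7 of 8 conditions, and in 6 of those 7. A428D clone 3 had the lowest DMSO level of any clone, 305 CPM, against 540 CPM untreated, and its changes from that DMSO library were the highest of the 6 A428D clones under venetoclax (0.88) and in all 3 combinations (0.47 to 0.80).

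The genes of the pathway above and below IRF4 were read from lists, as counts of members that passed in each direction. Comparisons with DMSO within a genotype share the same DMSO libraries and are set side by side only. In wild-type clones 6.57% of all genes passed under zelebrudomide, 2.45% under bexobrutideg, 9.99% under pomalidomide and 32.8% under venetoclax. In A428D clones the shares were 2.06%, 0%, 8.68% and 16.8%. The median change of all genes tested lay between -0.06 and -0.00067 in these comparisons, and list medians are given beside it. Of 5 NF-κB subunit genes, 3 fell under zelebrudomide in wild-type clones and 0 rose (list median -0.59, all genes -0.01). These were NFKB1, encoding p105 and p50 (-0.59 ± 0.14, adjusted p = 0.00379), NFKB2, encoding p100 and p52 (-0.83 ± 0.15, adjusted p = 3.29e-05), and RELB, their partner (-1.11 ± 0.12, adjusted p = 1.6e-10). Under bexobrutideg NFKB2 (-0.93 ± 0.15) and RELB (-1.19 ± 0.12) fell and 0 rose (list median -0.40). In A428D clones 0 of 5 passed with either degrader, where 2.06% and 0% of all genes passed. The genotype difference in the change passed for NFKB2 and RELB with both (0.84 and 1.11 with zelebrudomide, 0.95 and 1.04 with bexobrutideg), where 1.04% and 0.615% of all genes passed. Under venetoclax 3 of 5 rose in wild-type clones, NFKB1 (0.57 ± 0.14), NFKB2 (0.52 ± 0.14) and REL (0.37 ± 0.14), with a list median of 0.37 and 32.8% of all genes passing, and NFKB1 alone rose in A428D clones (0.36 ± 0.13). Under pomalidomide 0 of 5 passed in wild-type clones and NFKB1 fell in A428D clones (-0.44 ± 0.13).

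Of 16 genes for signal inputs to NF-κB, from CD79A and CD79B to MYD88 and the Toll-like receptors, 1 passed under each degrader in wild-type clones (list median 0.05 for both), a share near the 6.57% and 2.45% of all genes. It was LYN, the kinase beside the B cell receptor, which fell by 0.55 ± 0.08 under zelebrudomide and by 0.38 ± 0.08 under bexobrutideg. In A428D clones 0 of 16 passed with either degrader, where 2.06% and 0% of all genes passed, so that 0 of 16 is no result about them. Under venetoclax 8 of 16 fell and 1 rose in wild-type clones (list median -0.36), where 32.8% of all genes passed, with the lowest p for the adaptor BLNK (-0.58 ± 0.08), the receptor TLR7 (-0.71 ± 0.15) and CD79A (-0.70 ± 0.17) among those that fell and IRAK1 (0.39 ± 0.11) the one that rose, while IRF4 itself rose. In A428D clones 3 fell, BLNK, CD79A and TLR7 (list median -0.17), about the share of all genes, 16.8%. Pomalidomide lowered BLNK and raised TLR7 in both genotypes, by 0.39 and 0.70 in wild-type and by 0.36 and 0.68 in A428D clones. In each genotype 1 of 16 fell and 1 rose, near the 9.99% and 8.68% of all genes.

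Of 11 genes for DNA-binding partners, 3 fell and 1 rose under zelebrudomide in wild-type clones (list median -0.15; 6.57% of all genes passed). BATF, which pairs with JUN proteins beside IRF4, fell by 0.70 ± 0.14, SPIB, the ETS partner of IRF4, by 0.60 ± 0.14 and TCF3, encoding E2A, by 0.47 ± 0.08, and IKZF1 rose by 0.59 ± 0.07. Under bexobrutideg BATF (-0.91 ± 0.15), BATF3 (-0.95 ± 0.28) and TCF3 (-0.43 ± 0.08) fell and JUN rose (0.47 ± 0.12), with a list median of -0.19 and 2.45% of all genes passing. The genotype difference passed for BATF with both degraders (0.98 and 0.85). BATF rose under venetoclax in both genotypes, by 1.06 ± 0.14 and 0.64 ± 0.13. It also rose under pomalidomide in wild-type clones (0.66 ± 0.14). IRF4 there was lower, at -0.34 ± 0.15, which did not pass in the main fit and passed with clone as a replicate block (adjusted p = 0.00346). Of the 11 partner genes 5 rose and 2 fell under pomalidomide in wild-type clones (list median 0.37, with 9.99% of all genes passing). IKZF1 RNA rose under zelebrudomide (0.71 ± 0.06) and pomalidomide (0.90 ± 0.06) in A428D clones as well.

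In the IRF family 7 of 8 genes were expressed enough to test, besides IRF4. IRF8, the closest relative of IRF4 and also a B cell factor, fell by 0.70 ± 0.13 under zelebrudomide in wild-type clones and by 0.91 ± 0.11 in A428D clones, and by 2.13 ± 0.13 and 1.83 ± 0.12 under pomalidomide. Under bexobrutideg IRF8 did not pass in either genotype (0.05 ± 0.12 and -0.21 ± 0.11), whereas IRF4 fell in wild-type clones. IRF2 fell under zelebrudomide in wild-type clones (-0.47 ± 0.07) and under pomalidomide in both genotypes (-0.46 ± 0.07 and -0.29 ± 0.06). IRF7 rose under pomalidomide (0.54 ± 0.16 and 0.83 ± 0.14) and fell under venetoclax (-1.21 ± 0.17 and -0.85 ± 0.16). Under venetoclax 5 of 7 fell and 1 rose in wild-type clones, where IRF4 rose (list median -0.41; 32.8% of all genes passed), and 3 fell and 0 rose in A428D clones (list median -0.22; 16.8% passed).

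Of 9 genes held to be activated by IRF4 in B lymphoid cells, 3 fell and 0 rose under zelebrudomide in wild-type clones (list median -0.01, as for all genes; 6.57% of all genes passed). They were MYC (-0.78 ± 0.20), SUB1, a transcription coactivator (-0.33 ± 0.10), and KLF2, a factor of lymphocyte quiescence (-1.11 ± 0.18). Only KLF2 passed under bexobrutideg (-0.63 ± 0.18), where 2.45% of all genes passed. In A428D clones 0 of 9 passed with either degrader, where 2.06% and 0% of all genes passed, so that 0 of 9 is no result about them. KLF2 also fell under pomalidomide in both genotypes (-1.16 ± 0.18 and -0.66 ± 0.17). It was the 1 of 9 that passed in each, near the 9.99% and 8.68% of all genes. MYC rose under venetoclax in both, by 0.70 ± 0.19 and 0.57 ± 0.18, and the sterol enzyme SQLE fell. In that treatment 1 of 9 rose and 2 fell in wild-type clones, and 1 rose and 1 fell in A428D clones. These counts were near the shares of all genes, 32.8% and 16.8%, and are no result about the list. Of 3 genes held to be repressed by IRF4, 2 could be tested and 0 passed with either degrader. With 6.57% of all genes or fewer passing there, 0 of 2 is no result about them. IRF7 is 1 of the 2 and moved as given above. Of 7 plasma cell genes 0 passed with either degrader in either genotype (list medians 0.25 and 0.07 in wild-type, -0.31 and -0.08 in A428D clones), where 6.57% of all genes or fewer passed, so that 0 of 7 is no result about them. Under venetoclax in wild-type clones 2 of these 7 fell, near the 32.8% of all genes: XBP1, a plasma cell factor (-0.79 ± 0.18), and CD38 (-1.75 ± 0.36). XBP1 also fell in A428D clones (-0.65 ± 0.17), where 16.8% of all genes passed. Under pomalidomide CD38 was the 1 of 7 that fell in wild-type clones (-1.08 ± 0.33), near the 9.99% of all genes. Of the 3 neighbours on chromosome 6, DUSP22 and EXOC2 could be tested and 0 passed in any single-drug comparison, where 32.8% of all genes or fewer passed. DUSP22, a phosphatase gene, fell under pomalidomide plus venetoclax in wild-type clones (-0.47 ± 0.13, adjusted p = 0.00333), where 36.8% of all genes passed.

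The drug targets at the RNA level were as follows. BTK stood at 69.5 ± 3.64 CPM under DMSO and 78.7 ± 3.13 under zelebrudomide in wild-type clones (SD, n = 5), and at 66.3 ± 4.41 and 71.4 ± 4.504 in A428D clones (SD, n = 6). IKZF1 stood at 201.0 ± 7.73 CPM under DMSO and 303.9 ± 13.9 under zelebrudomide in wild-type clones (SD, n = 5). IKZF3 ran from 169.9 to 189.3 under DMSO and from 140.7 to 181.6 under zelebrudomide, and CRBN, encoding cereblon, from 12.4 to 15.8 and from 13.8 to 15.1. Degraders act on protein, which was not measured.

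Genes with the pattern most like IRF4 were ranked by Pearson's r over 77 values, the change of each clone from its own DMSO library under each treatment, among 9429 genes with a symbol and a mean of at least 5 CPM. These points share the clone's DMSO library and are not independent, so the correlations are descriptions. The median r over all genes was 0.04, and 29 genes reached 0.8. The 10 highest were NIN (0.90), encoding the centrosome protein ninein, MTHFD2 (0.90), a mitochondrial one-carbon enzyme, LYN (0.89), PLEK (0.87), encoding pleckstrin, and ARHGEF10 (0.87). They went on with DUSP2 (0.87), a MAP kinase phosphatase, KBTBD11-OT1 (0.87), PSAT1 (0.85), a serine synthesis enzyme, KBTBD11 (0.85) and SIAH2 (0.84), a ubiquitin ligase. ARHGEF10 and KBTBD11-OT1 overlap on the plus strand of chromosome 8, so how reads were split between them is uncertain. Over the 76 changes without the shallow library, 7 of these 10 and 2 of the 5 below were named by the same rule, the r of the 10 ran from 0.84 to 0.91, and 49 genes reached 0.8. The most opposite were VPREB3 (-0.85), POLD4 (-0.85), NMB (-0.83), PRAME (-0.83) and ID3 (-0.83), the last an inhibitor of E proteins.

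Within the 35 wild-type changes the r of NIN, MTHFD2 and LYN was 0.91 each, and within the 42 A428D changes, where IRF4 moved less, 0.66, 0.69 and 0.60. Over all 10 it ran from 0.84 to 0.91 in wild-type changes and from 0.34 (PSAT1) and 0.41 (SIAH2) to 0.83 (DUSP2) in A428D changes. LYN stood at 434.8 ± 16.6 CPM under DMSO and 296.3 ± 27.0 under zelebrudomide in wild-type clones (SD, n = 5), and at 420.2 ± 22.4 and 414.0 ± 44.0 in A428D clones (SD, n = 6). VPREB3, a protein associated with the immature B cell receptor, stood at 3.43 ± 0.759 CPM under DMSO and 11.4 ± 3.98 under zelebrudomide in wild-type clones. In the 24 h set its mean exceeded 5 CPM only in wild-type groups given a BTK degrader, so it met the expression limit through those groups. As it was also named from these same changes, the difference is a description and no separate support. Over the 16 group means in place of changes, r fell to 0.44 for both ARHGEF10 and KBTBD11-OT1 and stayed at 0.85 or above for the other 8 of the 10. Among the listed pathway genes besides LYN, r was 0.78 for MYC, 0.74 for NFKB1, 0.69 for BATF, 0.66 for NFKB2, 0.65 for TCF3 and 0.63 for RELB. It was -0.65 for CD79B, a chain of the B cell receptor complex. The shallow library moved several of these: without it r was 0.85 for NFKB2, 0.83 for RELB, 0.80 for MYC, 0.77 for BATF, 0.75 for NFKB1, 0.70 for TCF3 and -0.84 for CD79B, which put NFKB2 and RELB above MYC.

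**Figure D4:**
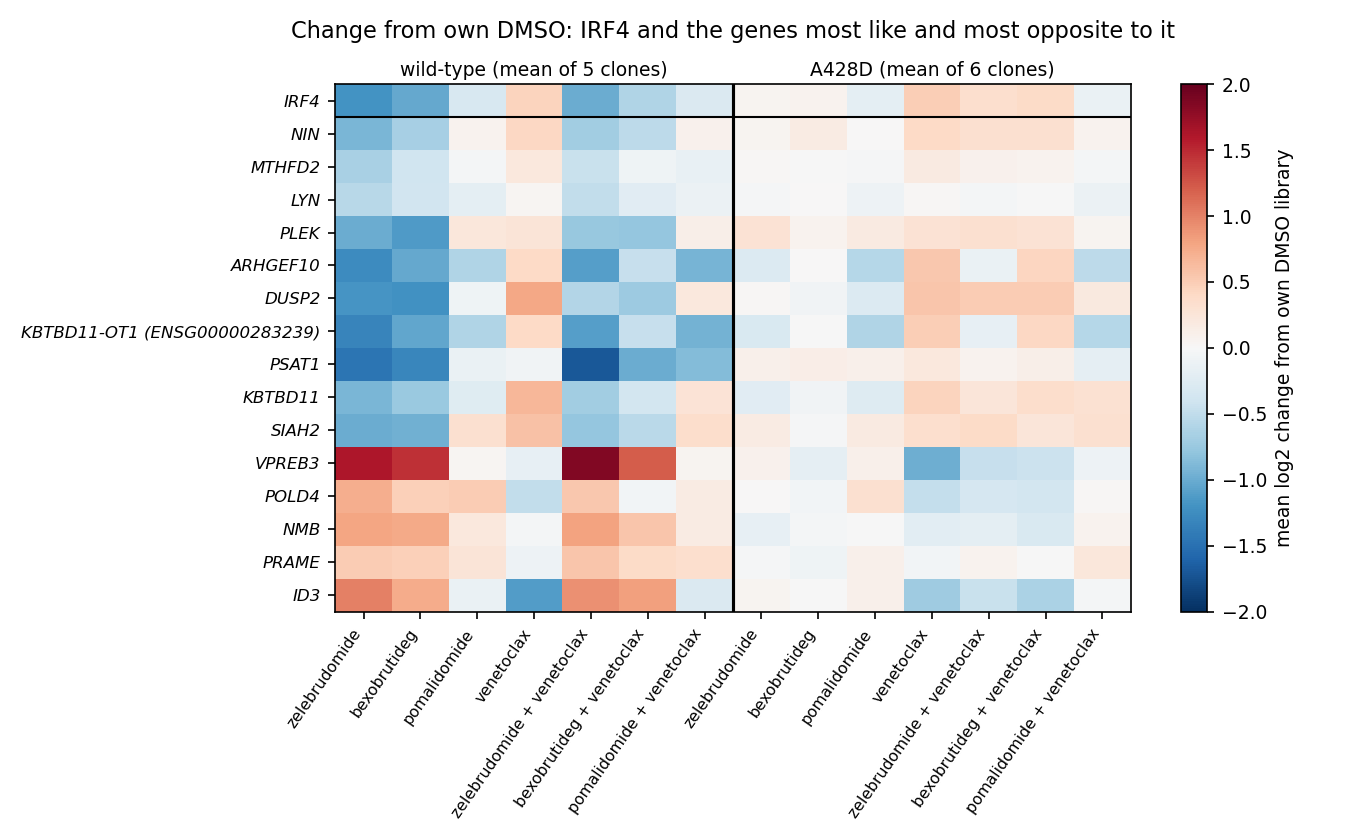
Mean log2 change from the clone's own DMSO library (colour) for IRF4 (top), the 10 genes most like it and the 5 most opposite (vertical axis) under the 7 treatments in wild-type and A428D clones (horizontal axis). NIN and LYN are low under the BTK degraders in wild-type clones as IRF4 is, but LYN stays near 0 under venetoclax where IRF4 is 0.45 to 0.50; VPREB3 is high where IRF4 is low.

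Across the 50 comparisons made, IRF4 passed in 22, of which 12 were higher and 10 lower. Of the 41 that could also be fitted with clone as a replicate block, it passed in 26. The 22 include 3 of the 9 comparisons of genotypes within a condition, which have no fit with that block. Of the 40 refitted without the shallow library, it passed in 17 with that library and in 19 without it.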

How the data were processed

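Poly(A) RNA of 100 TMD8 cultures was measured by 3' end sequencing. Per the labels' protocols, RNA was bead-extracted and made into tagmented libraries. Tools named by the submitters' processing notes include STAR 2.7.11 and featureCounts from Subread 2.1.1, with fastp 0.24.0 and edgeR, on GRCh38. Neither the strand setting nor the annotation release was given in the sources used here. What the authors deposited were estimated counts per gene, not normalised (8.75% not whole, which can place shared reads in part on a gene). They were rounded, and 92 spike-in entries, no more than 0.001% of any library, did not enter the totals.

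Groups and clones were taken from the labels. The test was that of edgeR 4.0.16, run in R 4.3.3 (TMM scaling, filterByExpr with a minimum count of 10 and total of 15, robust quasi-likelihood fit, Benjamini-Hochberg adjustment over all genes, threshold 0.05). All 88 libraries of the 24 h set entered 1 fit by group, with no term for clone, so the main test does not use the pairing. Genotypes within a condition were fitted on 11 libraries, and untreated against DMSO on 22. The labels give clone numbers, and libraries of a clone in different conditions come from the same clone, so the numbers pair the samples. Deviations from group means correlated within a clone (median 0.608 over 500 genes, lowest 0.06). Between clones of a genotype the median was -0.161. Taking out the mean of so few clones makes that value negative by construction, so it is no evidence on the pairing. Clone replicates are separate cultures of 1 line, and their spread measures variation between these clones.

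Alternatives were the clone as a replicate block, DESeq2 1.42.0, RLE scaling, library totals, no expression filter, only the groups compared, all libraries in 1 fit, leaving out each clone, and leaving out the shallow library. Levels, clone spread and likeness without that library were added after the data were seen. Likeness used log2 CPM with a prior count of 2, and the 10 highest and 5 lowest r were named. List members were named where called, up to 6 per list and comparison, otherwise the 3 with the lowest p each way. Some list members count in the totals but are not reported here by name. The lists were signal inputs, NF-κB subunits, DNA-binding partners, the IRF family, genes activated or repressed by IRF4, plasma cell genes and neighbours on chromosome 6. IRF4 and these lists were chosen with earlier results of these data known. Motifs were chosen after the window was seen. The edgeR function was tested on simulated data with known changes.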

Additional observations from a re-analysis of the deposited data

Results flagged for a closer look

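IRF4 in wild-type clone 3 under bexobrutideg plus venetoclax stood at 551.6 CPM, far above the other 4 libraries of its group, which lay between 238 and 274 CPM. Of 18 groups checked for an outlying library, this was the only 1 flagged, by a rule that flags about 1 in 20 groups by chance. How often chance gives a distance as large as this was not tested. That library had 1.48 units of 1000000 counted reads, the fewest of all 100. Of the 15 genes named for their likeness to IRF4, which were chosen with this library among the values, 14 lay outside the range of the other 4 libraries in it. The share of all genes outside that range was not counted, so 14 of 15 is no result about these genes. BTK stood at 39.1 CPM against 81.3 to 83.5, while IKZF1, IKZF3 and CRBN lay within the range of the other 4. Whether the library matches its label, and the part of its depth in the value, were not tested.

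The change of IRF4 from DMSO differed between A428D and wild-type clones for the BTK degraders: by 1.26 (log2) under zelebrudomide, 1.09 under bexobrutideg, 1.32 under zelebrudomide plus venetoclax and 0.89 under bexobrutideg plus venetoclax (A428D minus wild-type, edgeR interaction term). Each of the 5 wild-type clones fell below its own DMSO library in these treatments, with clone 3 under bexobrutideg plus venetoclax the exception.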

How the results depend on the processing

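For 57 tested IRF4 results, 335 alternatives other than leaving out a clone gave 306 with the same side of the threshold, 5 that lost and 24 that gained the call, and 0 that reversed. The falls under either degrader alone and under zelebrudomide plus venetoclax in wild-type clones kept their call in every alternative run, as did their genotype differences in the change. Where a cause is not shown by the construction of the alternative, the cause was not tested.

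With clone as a replicate block, 7 results gained the call: pomalidomide against DMSO (-0.34) and pomalidomide plus venetoclax (-0.31) in wild-type clones, zelebrudomide plus venetoclax (0.32), bexobrutideg plus venetoclax (0.36), venetoclax added to zelebrudomide (0.26) and to bexobrutideg (0.28), and bexobrutideg against pomalidomide (0.29) in A428D clones. The block changed no other call. Without the expression filter these gained: pomalidomide (-0.36) and pomalidomide plus venetoclax (-0.33) in wild-type clones, zelebrudomide plus venetoclax (0.35) and bexobrutideg plus venetoclax (0.39) in A428D clones, and A428D against wild-type under DMSO (-0.28), venetoclax (-0.22) and bexobrutideg plus venetoclax (0.71). In a fit of only the groups compared these gained: pomalidomide (-0.34) and pomalidomide plus venetoclax (-0.29) in wild-type clones, and bexobrutideg plus venetoclax in A428D clones (0.38). The same fit lost bexobrutideg plus venetoclax in wild-type clones (-0.48, adjusted p 0.228), its genotype difference (0.89, 0.171) and venetoclax added to bexobrutideg (0.51, 0.221). Library totals lost bexobrutideg plus venetoclax in wild-type clones (-0.43) and gained it in A428D clones (0.44), and gained the genotype difference under DMSO (-0.37). DESeq2 gained bexobrutideg plus venetoclax in A428D clones (0.37). Without the shallow library, zelebrudomide plus venetoclax (0.34) and bexobrutideg plus venetoclax (0.37) in A428D clones and the genotype difference under bexobrutideg plus venetoclax (0.92) were gained, and venetoclax added to bexobrutideg in wild-type clones (0.17) was lost. One fit of all 88 libraries gained the genotype difference under bexobrutideg plus venetoclax (0.63).

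Leaving out 1 clone at a time changed the call of 12 results. Their values ran from 0.44 to 0.52 for venetoclax (lost without clone 5) and -0.81 to -0.43 for bexobrutideg plus venetoclax in wild-type clones (lost without clone 2, 4 or 5). In A428D clones they ran from 0.26 to 0.39 for zelebrudomide plus venetoclax and 0.33 to 0.43 for bexobrutideg plus venetoclax, both gained without A428D clone 1 or 5 or wild-type clone 3, the second also without wild-type clone 1 or 4. For venetoclax added to bexobrutideg in wild-type clones they ran from 0.19 to 0.59 (lost without clone 3), and in A428D clones from 0.25 to 0.36, and on zelebrudomide from 0.19 to 0.34 (both gained without clone 5). For A428D against wild-type they ran from -0.35 to -0.21 under DMSO, -0.29 to -0.16 under venetoclax (both gained without A428D clone 5) and 0.51 to 0.92 under bexobrutideg plus venetoclax (gained without wild-type clone 3). For untreated against DMSO they ran from 0.27 to 0.37 in wild-type (lost without clone 1) and 0.23 to 0.38 in A428D clones (lost without clone 3).

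Counts of all genes called moved by over 1.5 times in 33 of 41 comparisons with the replicate block, 18 of 39 with only the groups compared, 14 of 50 without the filter, 4 of 50 each with DESeq2 and library totals, 0 of 50 with RLE scaling, 4 of 40 without the shallow library, 1 of 8 with all libraries in 1 fit and 128 of 550 on leaving out a clone. At 749 or more counts per library, IRF4 is limited by the spread of clones more than by counting.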
